A study of Mus musculus with 4 samples.

Results

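The genes described here encode the AP-1 transcription factors and other proteins of the immediate early response. They are Fos, Fosb, Jun, Junb, Jund, Atf3, Egr1, Ier2, Ier3 and Myc. All 10 symbols were found on the array among 12393 named genes, and they carried 11 of 22626 probe sets, counting only probe sets annotated to a single gene symbol. Jun had 2 probe sets and each of the other 9 genes had 1. The probe set of highest mean log2 signal represented a gene. RNA came from the gastrocnemius, a mainly fast-twitch muscle of the calf, of mice aged 6 weeks. The study hybridised 2 arrays of transgenic MCK-PPARb muscle, in which the nuclear receptor PPARbeta (gene Ppard) is overexpressed, and 2 arrays of muscle from non-transgenic (NTG) littermates, which the labels also call wild-type. MCK is the usual name of the muscle creatine kinase promoter, which is active in muscle fibres, though the labels neither spell it out nor name a founder line. Each array was taken as 1 mouse because the titles read biological rep. The design text leaves room for technical repeats, in which case p-values would measure only a technical spread.

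As background, immediate early genes are transcribed within minutes of a growth factor, a stress or muscle contraction, without new protein synthesis, mostly through MAP kinases acting on SRF, its ternary complex partners and CREB. Their products are short-lived. Fos and Jun proteins pair through leucine zippers to form AP-1, which binds DNA and changes the transcription of later genes, and ATF3 is a related leucine zipper protein induced by cell stress. In skeletal muscle these genes are known to respond to exercise, injury and handling of the tissue.

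Of the 10 genes, 7 were bright enough to be tested, and none of these passed the test for a difference between MCK-PPARb and NTG muscle. Among the 7, 4 read higher on both MCK-PPARb arrays than on both NTG arrays: Atf3, a stress-induced repressor and activator of transcription, at 4.55-fold, the AP-1 subunit genes Jund at 1.79-fold and Jun at 1.78-fold, and Ier3, which encodes a regulator of cell survival, at 1.58-fold. The classical serum-response genes Fos, Egr1 and Ier2 overlapped between the groups, at 1.18-fold, 1.26-fold and 0.975-fold. Fosb, Junb and Myc were dim.

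To be tested, a probe set needed a mean log2 signal above the median probe set, equal to 444 signal units. Of all probe sets 11313 met this filter level, for 6841 genes. The test was limma's moderated test, two-sided, with Benjamini-Hochberg adjustment over the 11313 probe sets, and a call needs an adjusted p under 0.05. Calls were rare throughout: they covered 0.601% of probe sets and 0.731% of the 6841 genes, 0.409% of genes with MCK-PPARb higher and 0.322% with MCK-PPARb lower. The 0 of 7 here is read against that low background. At an unadjusted p under 0.05, 3 of the 7 (Jund, Jun and Atf3) were higher and 0 were lower, where 5.31% of all genes were higher and 5.57% lower. The groups did not overlap, with MCK-PPARb higher, for 4 of the 7 and for 22.2% of all genes. With 2 arrays in each group, the smallest p that exact permutation of 1 gene allows is 0.333, and each p below therefore leans on the spread limma shares across genes.

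Ppard itself read 126049 and 98797 on the MCK-PPARb arrays and 2169 and 2825 on the NTG arrays, which matches the labels. Median signals ran from 454 to 513 on the MCK-PPARb arrays and from 431 to 466 on the NTG arrays. The 10 brightest probe sets held 2.44% to 2.78% of the signal on the MCK-PPARb arrays, 4.20% on NTG replicate 1 and 2.36% on NTG replicate 2. All 9 skeletal muscle fibre markers examined lay above 444 units, and none passed the test. Their signals summed to 1241095 and 1105413 on the MCK-PPARb arrays, against 1861422 on NTG replicate 1 and 1076097 on NTG replicate 2, with a median log2 difference of -0.29 and 8 of the 9 below 0. NTG replicate 1 was the highest of the 4 in this sum. Without it the log2 differences of Atf3 and Jun were larger, as given below. Its part in those results was not tested. Bulk muscle RNA cannot tell fewer cells of a type from less RNA per cell.

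Promoters of 7 of the 10 genes (Fos, Fosb, Jun, Junb, Jund, Atf3 and Ier3) matched the RefSeq table of build GRCm38.p6. Egr1, Ier2 and Myc had no entry there, so these are not the same genes as the 7 tested. The entries cover 250 bases before to 50 after the start of a gene. Those of Jun and Atf3, which did not overlap between the groups, and of Fos, which did, are shown on the strand of the gene, 5′ to 3′. Capitals mark the half-site of the cyclic AMP response element, TGACG, and an octamer like that element, TGACNTCA, on either strand. Both are classes of site that CREB, ATF and Jun proteins are known to bind, and the octamer contains the half-site when its N is G.
Jun, chr4:95052173-95052472, minus strand: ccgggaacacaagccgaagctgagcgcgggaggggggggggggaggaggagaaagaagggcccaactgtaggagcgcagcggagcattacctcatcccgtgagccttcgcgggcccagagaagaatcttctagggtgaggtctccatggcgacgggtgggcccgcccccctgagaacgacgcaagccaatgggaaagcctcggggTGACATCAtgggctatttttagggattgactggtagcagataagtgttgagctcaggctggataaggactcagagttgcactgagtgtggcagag
Atf3, chr1:191183284-191183583, minus strand: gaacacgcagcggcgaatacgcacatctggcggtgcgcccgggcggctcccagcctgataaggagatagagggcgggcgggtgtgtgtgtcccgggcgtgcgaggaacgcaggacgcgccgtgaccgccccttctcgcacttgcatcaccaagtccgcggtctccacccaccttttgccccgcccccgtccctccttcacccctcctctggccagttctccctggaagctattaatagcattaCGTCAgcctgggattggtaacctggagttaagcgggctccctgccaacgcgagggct
Fos, chr12:85473640-85473939, plus strand: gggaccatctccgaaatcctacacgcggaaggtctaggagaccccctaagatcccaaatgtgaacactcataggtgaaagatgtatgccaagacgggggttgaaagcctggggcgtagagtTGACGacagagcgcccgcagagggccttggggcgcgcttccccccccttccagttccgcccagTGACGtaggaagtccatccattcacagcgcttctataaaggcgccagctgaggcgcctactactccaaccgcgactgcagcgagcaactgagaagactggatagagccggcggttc

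The Jun window holds 1 octamer, TGACATCA, whose first base is 45 bases before the start (-45). Atf3 holds 1 half-site, read as CGTCA on its own strand, at -7. Fos holds 2 half-sites, at -129 and -66, and a TATA box (TATAAA) at -33. Among the 7 promoters, TGACG occurred in Fos, Fosb, Junb and Atf3, and in 20.8% of the 32851 promoters of the table. TGACNTCA occurred in Jun alone of the 7, and in 8.83% of all. The AP-1 heptamer TGANTCA was in none of the 7 windows and in 7.81% of all. The CArG box, to which SRF binds, was also in none of the 7 windows and in 1.63% of all. Sites outside these windows were not searched, and neither were the promoters of Egr1, Ier2 and Myc. None of the 7 held the nuclear receptor half-site AGGTCA, present in 16.3% of all promoters, or the DR1 element, the kind of site that PPAR binds with RXR, present in 0.0396%. Both strands were searched for every motif, and a match is a description of letters in this window.

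**Figure D1:**
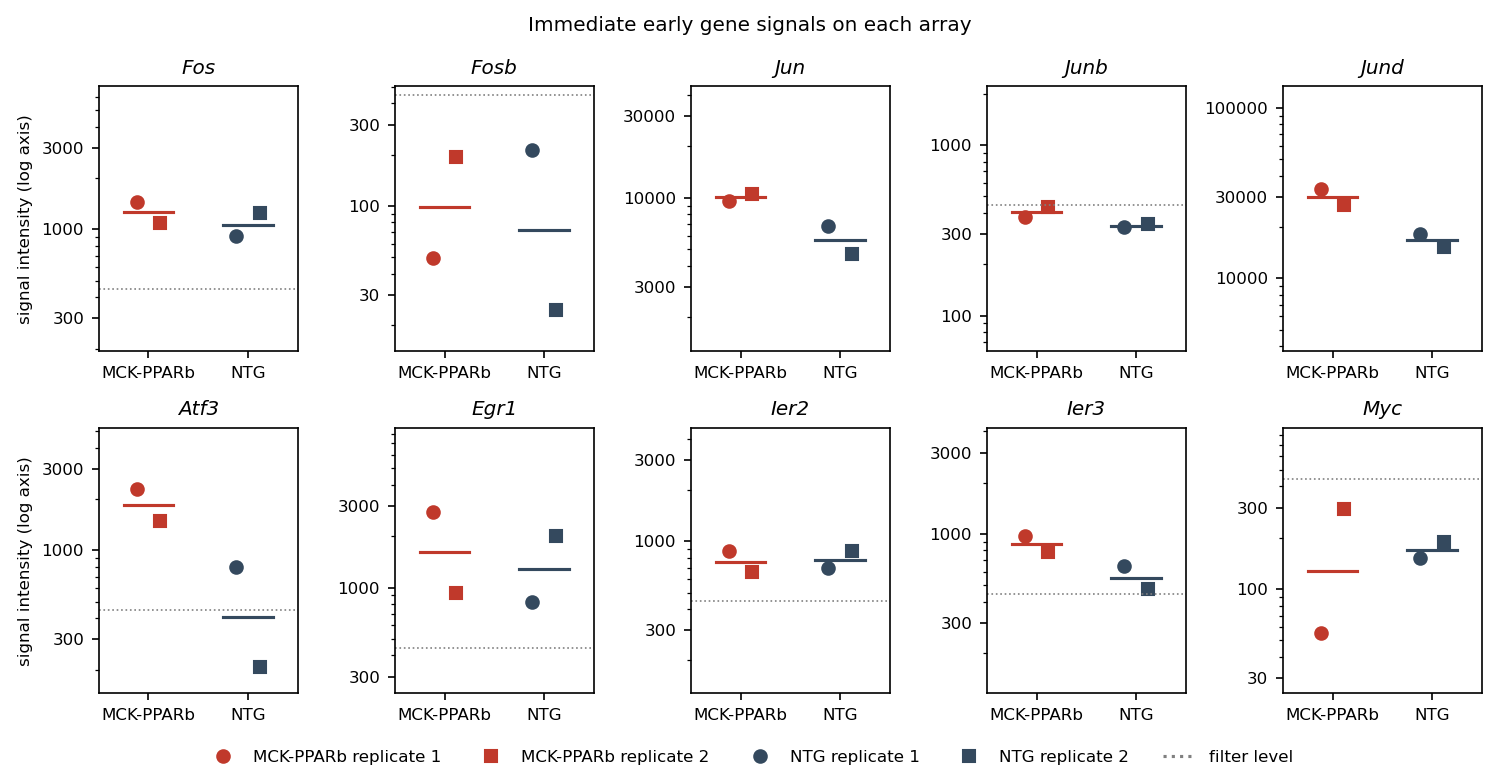
Signal intensity of the 10 genes on each array, with a log axis of its own in each panel that spans the same ratio. Points are arrays, horizontal bars are means of log2 signals put back on the linear scale, and the dotted line is the filter level of 444 units; Jun, Jund, Atf3, Ier3 and Junb have both MCK-PPARb points above both NTG points.

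Atf3 had the largest difference of the 7 tested genes. Its signal was 2304 and 1492 on the MCK-PPARb arrays, against 800 and 208 on the NTG arrays. The groups did not overlap, but the NTG arrays differed from each other 3.86-fold, and NTG replicate 2 lay below the filter level. The log2 difference was 2.19 ± 0.60 (SE, n = 2 per group), with a 95% interval of 0.78 to 3.59, and it did not pass in limma (adjusted p = 0.232). With signals below 444 units raised to that level it was 1.64 (adjusted p = 0.140). Only 14 of the 6841 genes had a larger difference with MCK-PPARb higher, and genes with MCK-PPARb lower were not counted. Without NTG replicate 1, which left the array of 208 units as the only NTG array, the log2 difference was 3.16. It was 1.21 without NTG replicate 2. Leaving out MCK-PPARb replicate 1 gave 1.87, and leaving out MCK-PPARb replicate 2 gave 2.50.

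Jund is one of the Jun genes, which encode the partners that Fos proteins need. It read 33299 and 26922 units on the MCK-PPARb arrays and 18327 and 15283 units on the NTG arrays. The lower MCK-PPARb array was above the higher NTG array, and arrays of a group differed 1.24-fold in MCK-PPARb and 1.20-fold in NTG muscle. On the log2 scale Jund differed by 0.84 ± 0.20 (SE, n = 2 per group), with a 95% interval of 0.37 to 1.31 (limma, adjusted p = 0.160). Its product, JunD, is known as the Jun protein of resting cells.

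Jun, the founding AP-1 gene, gave nearly the same size of difference. Its brighter probe set read 9559 and 10582 units in MCK-PPARb muscle and 6788 and 4689 units in NTG muscle, with no overlap. For this probe set the log2 difference was 0.83 ± 0.23 (SE, n = 2 per group), with a 95% interval of 0.30 to 1.36 (limma, adjusted p = 0.228). The other Jun probe set, a second measurement on the same arrays, gave 2952 and 4660 units in MCK-PPARb muscle, against 2029 and 2378 units in NTG muscle, and again the groups did not overlap. Its log2 difference was 0.76 ± 0.27 (limma, adjusted p = 0.361), so both probe sets of Jun lay in the same direction. For the brighter one, leaving out NTG replicate 1 gave a log2 difference of 1.10 and leaving out NTG replicate 2 gave 0.57. Each of these runs left a single NTG array. The values without MCK-PPARb replicate 1 and replicate 2 were 0.91 and 0.76.

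Junb, whose product can oppose Jun, was below the filter level and was not tested. It read 378 and 436 units on the MCK-PPARb arrays and 329 and 345 units on the NTG arrays. These values did not overlap, and the ratio of the group means was 1.20. With no filter its log2 difference was 0.27, with a 95% interval of -0.86 to 1.39 (limma, adjusted p = 0.951).

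Of the Fos genes, Fos itself was measured above the filter level. Its signal was 1438 and 1096 in MCK-PPARb muscle and 908 and 1239 in NTG muscle. NTG replicate 2 lay between the MCK-PPARb arrays, so the groups overlapped. The log2 difference was 0.24 ± 0.29 (SE, n = 2 per group, limma, adjusted p = 0.833), with a 95% interval of -0.44 to 0.93, and the 1.18-fold ratio of the group means was smaller than the 1.31-fold and 1.36-fold ratios between arrays of MCK-PPARb and of NTG muscle. The interval reaches a fold change of 1.91. With 1 array left out the log2 difference of Fos ran from 0.019 without NTG replicate 1 to 0.47 without NTG replicate 2, and it was 0.047 without MCK-PPARb replicate 1.

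Fosb, which encodes a Fos protein that accumulates on repeated stimulation in neurons, was far below the filter level. It read 49.6 and 195 in MCK-PPARb muscle and 212 and 24.5 in NTG muscle. The arrays of a group differed 3.93-fold in MCK-PPARb and 8.64-fold in NTG muscle, and no direction can be read from them.

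**Figure D2:**
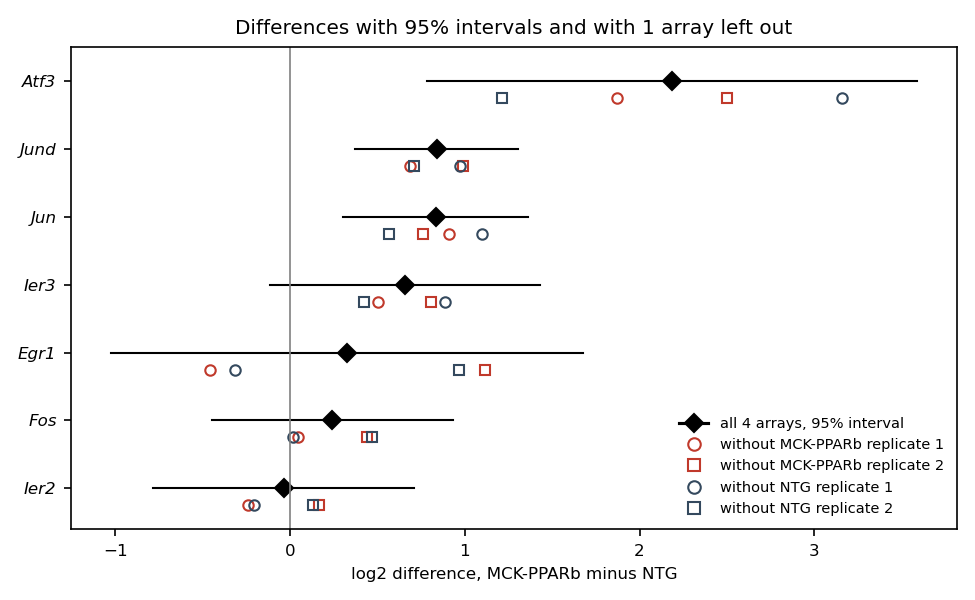
Log2 difference, MCK-PPARb minus NTG, of the 7 tested genes: diamonds are all 4 arrays, lines the 95% intervals of limma, and open symbols the differences with 1 array left out. The intervals of Atf3, Jund and Jun lie above 0 before adjustment, and the open symbols of Egr1 and Ier2 fall on both sides of 0.

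Egr1 encodes a zinc finger transcription factor and is, like Fos, a standard marker of a recent stimulus. It read 2776 and 935 in MCK-PPARb muscle and 823 and 2000 in NTG muscle. The arrays of a group differed more from each other, 2.97-fold in MCK-PPARb and 2.43-fold in NTG muscle, than the group means did. The log2 difference was 0.33 ± 0.58 (SE, n = 2 per group, limma, adjusted p = 0.895), and the 95% interval ran from -1.02 to 1.68. With 1 array left out it ranged from -0.46 to 1.11. It turned negative without MCK-PPARb replicate 1 (-0.46) and without NTG replicate 1 (-0.31).

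The 4 arrays fell in the same order for Fos and Egr1: MCK-PPARb replicate 1 was highest, then NTG replicate 2, MCK-PPARb replicate 2 and NTG replicate 1. Jund, Atf3 and Ier3 shared another order, with MCK-PPARb replicate 1 highest, then MCK-PPARb replicate 2, NTG replicate 1 and NTG replicate 2. A set of 4 arrays is too small for a correlation, and the orders are given as a description.

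Ier2, a small nuclear immediate early protein gene, read 876 and 659 in MCK-PPARb muscle and 693 and 876 in NTG muscle. The higher array of each group was at the same level and the groups overlapped. On the log2 scale Ier2 differed by -0.037 ± 0.32 (SE, n = 2 per group, limma, adjusted p = 0.981), with a 95% interval of -0.78 to 0.71. Its sign turned without MCK-PPARb replicate 2 (0.17) and without NTG replicate 2 (0.13).

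Ier3 is known as a stress-inducible gene under NF-kappaB control. It read 971 and 787 in MCK-PPARb muscle and 651 and 472 in NTG muscle, with no overlap. The log2 difference was 0.66 ± 0.33 (SE, n = 2 per group, limma, adjusted p = 0.553), and the 95% interval of -0.12 to 1.43 included 0.

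Myc, which encodes a transcription factor of growth and ribosome production, was below the filter level. It read 55.0 and 294 in MCK-PPARb muscle and 151 and 189 in NTG muscle. The MCK-PPARb arrays differed 5.35-fold and lay on both sides of the NTG arrays. With no filter the log2 difference was -0.41, with a 95% interval of -2.67 to 1.85 (limma, adjusted p = 0.969).

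Across the 7 tested genes the median log2 difference was 0.66 and the range -0.037 to 2.19, while the median of all 6841 genes was 0.011. The 3 dim genes are not in these figures. Counted with their sign, Atf3, Jund, Jun and Ier3 were larger than 99.8%, 96.8%, 96.7% and 93.9% of all gene differences. Egr1 and Fos were at 81.1% and 74.5%, and Ier2 at 44.4%. The median of the 7 ran from 0.50 to 0.89 when any 1 array was left out.

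**Figure D3:**
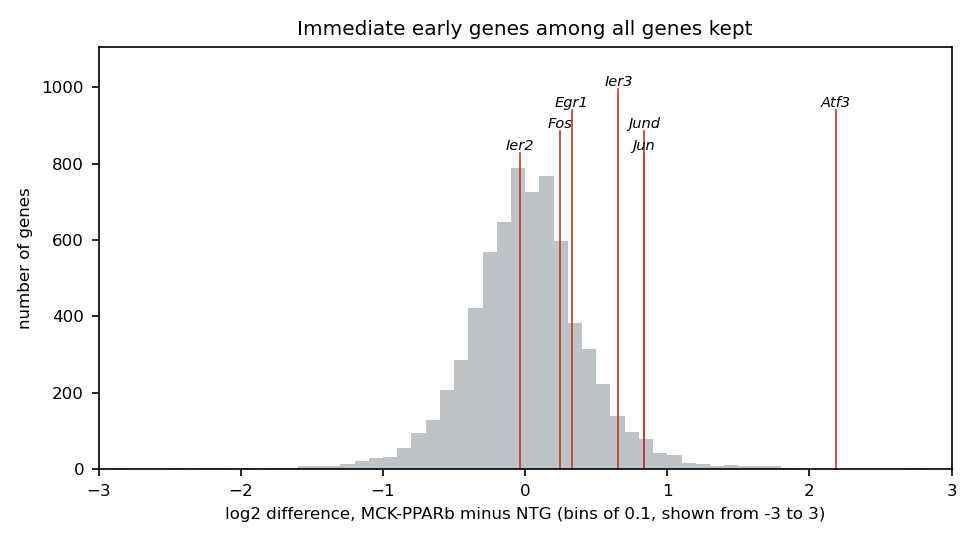
Histogram of the log2 differences, MCK-PPARb minus NTG, of the 6841 tested genes in bins of 0.1, shown from -3 to 3, with red lines at the 7 tested genes. Ier2, Fos and Egr1 lie within the bulk of all genes, Ier3, Jun and Jund on its upper flank, and Atf3 far to the right at 2.19.

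The 5 genes whose centred log2 signals lay closest to those of Fos over the 4 arrays, by Euclidean distance, were Larp4b (0.024), Hnrnpk (0.060), Slco5a1 (0.068), Kera (0.072) and Cep350 (0.075). Larp4b, for example, read 8501 and 6625 in MCK-PPARb muscle and 5457 and 7443 in NTG muscle. Among the genes described here, Ier2 was the closest to Fos at 0.29, and Egr1, with the same order of arrays but a wider spread, was at 1.02.

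Of 54 further immediate early genes listed, 51 were on the array and 40 were tested. None was called, with a median log2 difference of 0.21. At an unadjusted p under 0.05 in limma, 5 of the 40 were higher and 2 lower in MCK-PPARb muscle, against 5.31% and 5.57% of all genes. Those of smallest p went both ways. Zfp36l1, which encodes an RNA-binding protein that promotes mRNA decay, read 4539 and 4449 in MCK-PPARb muscle and 1599 and 2071 in NTG muscle (log2 1.30 ± 0.22, adjusted p = 0.0650 with limma). Nr4a1, an orphan nuclear receptor gene of the immediate early class, read 6291 and 5747 in MCK-PPARb muscle and 16555 and 12076 in NTG muscle (log2 -1.23 ± 0.21, adjusted p = 0.0691 with limma). Socs3, an inhibitor of cytokine signalling and target of STAT3, read 1916 and 769 in MCK-PPARb muscle and 434 and 242 in NTG muscle (log2 1.91 ± 0.51, adjusted p = 0.220 with limma). For each of these 3 genes the arrays of the groups lay apart. Without NTG replicate 2, which left a single NTG array, the log2 difference was 1.49 for Zfp36l1 and -1.46 for Nr4a1. Without NTG replicate 1, which also left a single NTG array, both differences were smaller in size than with every array kept. Both genes kept their direction whichever array was left out. Nr4a1 thus lay on the opposite side of 0 from Atf3 and Jun.

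Partners and relatives of AP-1 were 17 in number, 15 of them on the array and 10 tested, with none called and a median log2 difference of 0.030. At an unadjusted p under 0.05 in limma, 0 were higher and 1 was lower, against 5.31% and 5.57% of all genes. Atf4, the regulator of the integrated stress response and a known activator of Atf3, read 4735 and 6190 in MCK-PPARb muscle and 9175 and 15674 in NTG muscle. It was lower on both MCK-PPARb arrays (log2 -1.15 ± 0.28, limma, adjusted p = 0.181), where Atf3 was higher on both. The log2 difference of Atf4 ran from -1.53 without NTG replicate 1 to -0.76 without NTG replicate 2, each time with a single NTG array left. The log2 differences were -0.53 for Atf2, another leucine zipper partner of Jun, and -1.17 for the related gene Maf, whose groups overlapped.

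No upstream regulator was called. All 8 genes of SRF, its partners and the Egr corepressors were on the array and 7 were tested, with 0 at an unadjusted p under 0.05 in limma. Their log2 differences ran from -0.17 for Mrtfa to 0.36 for Elk1, with 0.13 for Nab1. The MAP kinase cascade and its inhibitors had 24 genes listed, 17 on the array and 15 tested, with none called and a median log2 difference of -0.39. In 8 of these 15 both MCK-PPARb arrays were below both NTG arrays, as they were in 20.8% of all genes. In 1 they were above, as in 22.2% of all genes. Map2k2, which encodes the ERK kinase MEK2, read 5891 and 6027 in MCK-PPARb muscle and 9119 and 9011 in NTG muscle (log2 -0.61 ± 0.18, limma, adjusted p = 0.258). Map2k6, a kinase gene of the p38 pathway, had a log2 difference of -0.62, and Spry2, an inhibitor of growth factor signalling, of -0.72. At an unadjusted p under 0.05 in limma, 4 of the 15 were lower and 0 higher, against 5.57% and 5.31% of all genes.

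Around Myc, 7 of 11 network genes and 11 of 12 target genes were tested and none was called. At an unadjusted p under 0.05 in limma, 1 network gene was higher and 2 target genes were lower. Of all genes, 5.31% were higher and 5.57% lower at that p. Median log2 differences were 0.10 for the network and -0.13 for the targets. Mlxip, which encodes the MondoA glucose sensor, read 5970 and 5438 in MCK-PPARb muscle and 2793 and 3659 in NTG muscle (log2 0.83 ± 0.21, limma, adjusted p = 0.198). Mxd4 and Mlx had log2 differences of -0.42 and 0.24. Of the targets, Tfrc, the transferrin receptor gene, had a log2 difference of -1.35 ± 0.23 (limma, adjusted p = 0.0691), and Odc1, the ornithine decarboxylase gene, of -1.22 ± 0.24 (limma, adjusted p = 0.0993). When any 1 array was left out, the log2 difference ran from -1.64 to -1.05 for Tfrc and from -1.55 to -0.90 for Odc1. Ccnd2, a cyclin gene, had a log2 difference of 0.42.

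**Figure D4:**
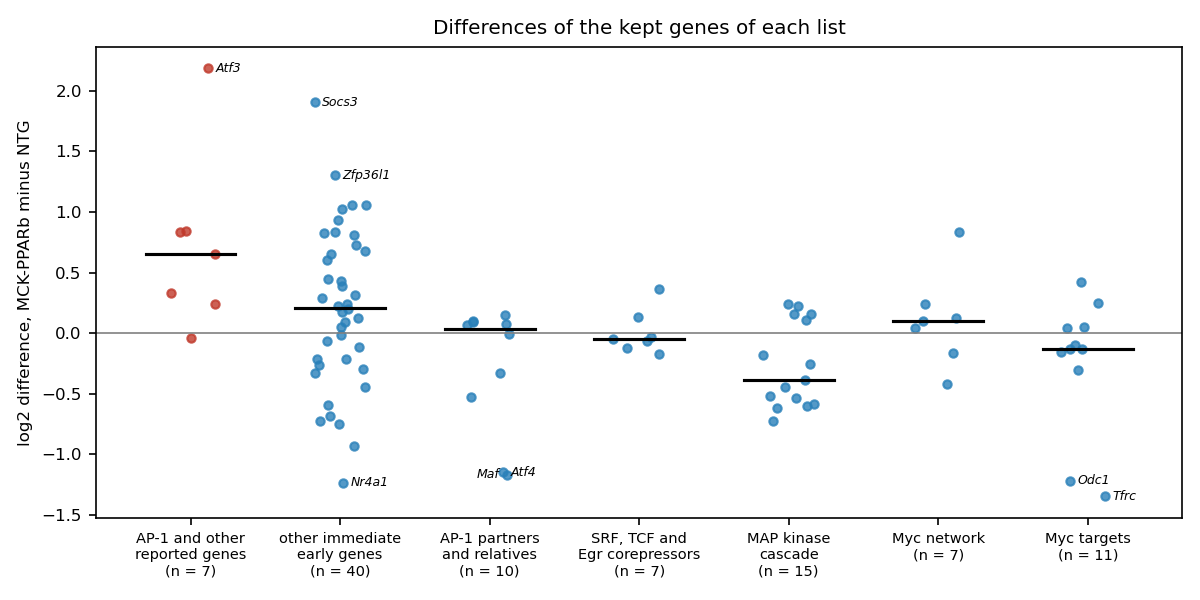
Log2 differences, MCK-PPARb minus NTG, of the tested genes of each list, with the median as a black bar and the number of genes under each label; the most distant genes are named. The 7 genes described here have a median of 0.66 and the MAP kinase list one of -0.39.

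Immediate early genes are transcribed in many cell types, so markers of other cells are given beside them. Schwann cell and nerve markers, 6 of 8 on the array and 3 above the filter level, summed to 30887 and 34663 units on the MCK-PPARb arrays and 18545 and 20435 on the NTG arrays, with a median log2 difference of 0.67. Satellite cell and regenerating fibre markers, 7 of 7 on the array and 3 above the filter level, summed to 5954 and 9602 units in MCK-PPARb muscle and 4455 and 4584 in NTG muscle, with a median log2 difference of 0.92. The sums of both lists did not overlap between the groups. In the Schwann cell and nerve list, log2 differences were 0.96 for Mbp, 0.67 for Pmp22 and 0.29 for Sox10, and Mbp and Pmp22 were the brightest. Below the filter level they were 0.60 for Ngfr, but -0.13 for Mag and -0.94 for S100b. In the satellite cell and regenerating fibre list, log2 differences were 0.09 for Pax7, below the filter level, and -0.02 for Myod1. Myh3, also below the filter level, read 1201 and 1561 in MCK-PPARb muscle and 59.9 and 183 in NTG muscle. Log2 differences were 0.92 for Myog and 1.19 for Myh8, whose NTG signals both lay below the filter level. Adipocyte markers, 5 of 7 on the array, summed to 12482 and 12392 units in MCK-PPARb muscle and 9561 and 14305 in NTG muscle. The 3 above the filter level had a median log2 difference of 1.02. It was 1.03 for Adipoq and 1.02 for Retn, but -0.23 for Fabp4. Cidec and Lep, below the filter level, had log2 differences of -0.47 and -0.80. Macrophage markers, 8 of 8 on the array, summed to 11677 and 11238 units in MCK-PPARb muscle and 11634 and 9715 in NTG muscle. None of the 4 neutrophil markers and 7 T and B cell markers on the array reached the filter level. The sums overlapped between the groups for adipocyte, macrophage, endothelium, fibroblast, smooth muscle and erythroid markers. No marker was listed at 0. The part of these cells in the signals of Jun, Jund, Atf3 and Ier3 was not tested.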

How the data were processed

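The file holds a linear signal intensity for each probe set on each array, as deposited. The submitters' processing notes name MAS5 and GCOS, without a version in the sources used here. The authors' values share a common level: the mean after leaving out 2% of probe sets at each end was 1499 to 1500 on all 4 arrays. Of 22690 probe sets, 64 controls were left out. Of the others, 20380 carried 1 symbol, 691 several and 1555 none here. The gene table of assembly GRCm38.p6 gave current symbols for 20351 through their gene numbers.

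Log2 signals, with no pseudocount, were fitted with limma 3.58.1 in R 4.3.3 (lmFit, eBayes with an intensity trend) over 11313 probe sets. Residual degrees of freedom were 2, and the prior supplied 5.38 more. The fit was tested on simulated data. Intervals are limma's, and the number of arrays limits the precision.

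The 10 genes and all lists were chosen with earlier results of these data known. Of each list, called genes and the 3 of smallest p were named. Alternatives are given in the closing section. The labels give no scan date.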

Additional observations from a re-analysis of the deposited data

How the results depend on the processing

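With all 4 arrays, 68 probe sets were called, 38 of them with MCK-PPARb higher and 30 with MCK-PPARb lower. The count was 116 with median centring (48 higher and 68 lower), 21 without the intensity trend, 377 with a replicate block, 423 with quantile normalization and the block, 150 at an adjusted p under 0.1, and 36 to 159 with 1 array left out. Of the 10 genes, 7 were tested (all 10 with no filter, 2 with a filter at the 75th percentile) and 0 were called, as under all alternatives except these: 3 (Jun, Jund and Atf3) with a replicate block, alone or with quantile normalization, and 2 (Jun and Atf3) without NTG replicate 1, in a range of 0 to 2 with 1 array left out. A run with 1 array left out has a single array in 1 of the groups. The replicate numbers are shared across the groups, but nothing in the labels pairs the mice. Deviations of same-numbered arrays from their group means correlated at 0.28 over probe sets.

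Of the 87 tested pathway genes, 0 were called. There were 3 with median centring, 3 with a filter at the 75th percentile, 2 with robust eBayes, 8 with the block, 8 with quantile normalization and the block, 4 at an adjusted p under 0.1, 1 where the probe sets of each gene were averaged, and 0 to 3 with 1 array left out, Atf4 and Tfrc among them without NTG replicate 1. Leaving out 1 array gave -0.46 to 1.11 for Egr1 and -0.24 to 0.17 for Ier2, which changed sign, and 1.21 to 3.16 for Atf3. The other 5 tested genes kept their direction under every alternative run that tested them. Median centring subtracts a single value from each array, so it lowered every log2 difference by the same 0.11. Differences relative to the median of all genes (Atf3 2.17, Ier2 -0.047) therefore cannot change with it, and their constancy is no check of the results. The median of the 7 genes ran from 0.50 to 0.89 with 1 array left out. Fosb, Junb and Myc were tested only with no filter. A pseudocount of 100, signals raised to the filter level, and dropping the probe sets that end in _s_at or _x_at changed no call among the 10 genes.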
